A study of Mus musculus with 10 samples.

Results

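The matrix metalloproteinase module comprised every protein-coding gene of the count tables whose symbol starts with Mmp, Timp, Adam, Adamts or Adamtsl followed by a number and ends in digits, a or b. That rule gave 83 members of 55487 genes, of which 21897 were protein-coding: 22 matrix metalloproteinases (MMPs), 4 tissue inhibitors of metalloproteinases (TIMPs), 33 ADAMs, 19 ADAMTS proteases and 5 ADAMTS-like proteins. RNA-seq had been done on cells sorted from mouse mammary glands, in 10 libraries. Mammary epithelial cells (MECs) gave 2 wild-type (WT) and 2 CebpbΔM libraries, and mammary gland macrophages gave 2 WT and 4 CebpbΔM libraries. Mice were 10-wk-old females of a BALB/c background taken in diestrus, and all of them carried floxed Cebpb alleles (Cebpb fl/fl). CebpbΔM mice, labelled C/EBPb knockdown in the sample records, also carried Csf1r-Cre, whose promoter is active in macrophages and other myeloid cells, whereas WT mice lacked Cre. MECs had been obtained by removing cells of other lineages and macrophages by selecting cells with F4/80 on their surface. No source used here says that replicates were separate mice, so the p-values measure the spread between these libraries, which may be technical.

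MMPs and ADAMTS proteases are zinc enzymes that cut extracellular matrix, and in the mammary gland they take part in the remodelling that goes with branching, alveolar budding and involution. TIMPs bind the active site of MMPs and of several ADAM and ADAMTS proteases. ADAMs are mostly membrane-bound and release growth factors, cytokines and receptors from the cell surface, but a number of them have lost catalysis or serve sperm function. ADAMTS-like proteins share the noncatalytic domains of ADAMTS proteases and lie in the matrix.

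Library totals were 25310926 to 27008166 counts in MECs and 16935000 to 20174722 in macrophages. Levels are given as CPM, the count scaled by library size, after TMM scaling over the 10 libraries, or per kilobase of gene model (RPKM) where genes are compared with each other. Cebpb itself did not tell the macrophage genotypes apart: its count was 13 and 15 in WT and 16, 13, 5 and 4 in CebpbΔM macrophages, or 0.24 to 0.81 CPM in all 6 libraries. In MECs it was 1.01 and 1.13 CPM in WT and 2.80 and 1.63 CPM in CebpbΔM. WT and CebpbΔM therefore mean here the libraries so labelled. The 12 macrophage markers summed to 4268 and 6423 CPM in WT macrophages, 7486 to 9847 CPM in CebpbΔM macrophages and 229 to 406 CPM in MECs. Most of the MEC sum was Cd14, at 182 to 366 CPM, and every other macrophage marker was at most 19.5 CPM in MECs. The macrophage libraries also held the markers of other cells. Luminal epithelial markers, 26991 to 35705 CPM in MECs, summed to 10167 and 10735 CPM in WT and 5457 to 7643 CPM in CebpbΔM macrophages. Endothelial markers summed to 915 to 2050 CPM in macrophages against 91.1 to 132 CPM in MECs. Pericyte markers summed to 370 to 740 CPM against 69.3 to 119 CPM. Fibroblast markers were at 3453 to 7879 CPM in macrophages and 5350 to 6515 CPM in MECs. Dendritic cell markers summed to at most 558 CPM, mast cell markers to 76.3 CPM and neutrophil markers to 42.9 CPM in macrophages. Most of the dendritic cell sum was Cd209a, up to 455 CPM, and Siglech, up to 94.2 CPM. Flt3, Xcr1, Clec9a and Ccr9 were at most 7.01 CPM. Adipocyte and lymphocyte markers stayed at or below 18.0 CPM in every library. In such mixed samples, fewer cells of a type and less RNA per cell cannot be told apart. For epithelial genes in its macrophages, the study proposes that the RNA may come from epithelial cells taken up by phagocytosis. RNA taken up and RNA of carried-over cells cannot be told apart here. The part of either in the results below was not tested.

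**Figure D1:**
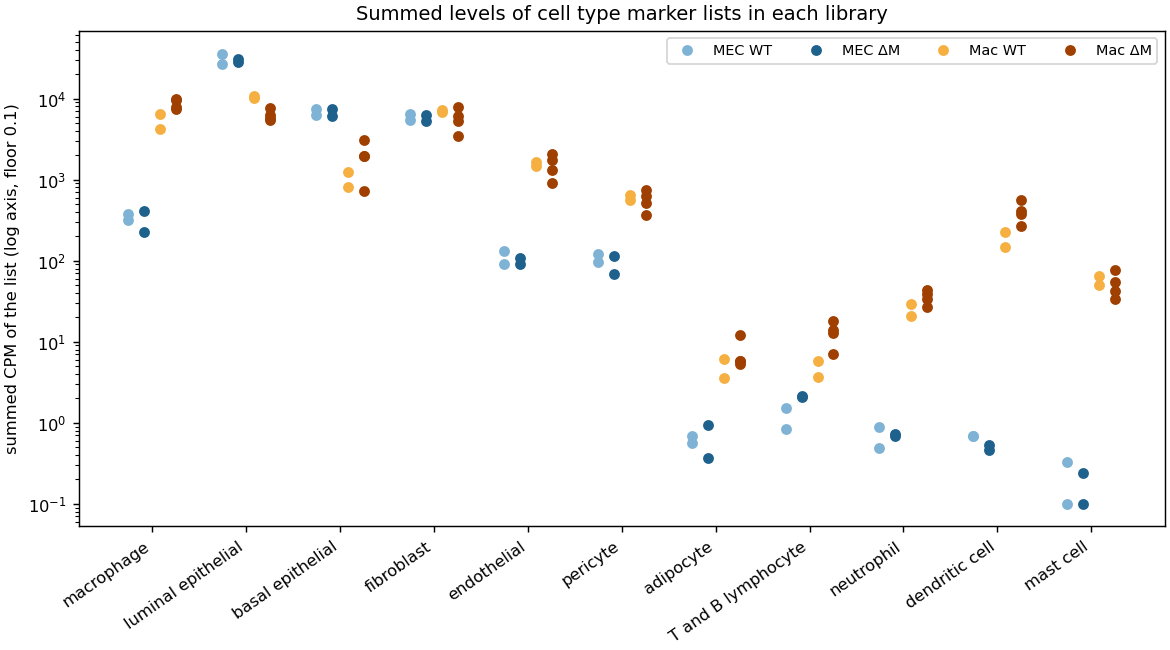
Summed CPM of each cell type marker list (log axis, sums under 0.1 drawn at 0.1), with 1 point per library in 4 groups (MEC WT, MEC ΔM, Mac WT, Mac ΔM). Macrophage markers were 4268 CPM or more in all 6 macrophage libraries and at most 406 CPM, most of it Cd14, in the 4 MEC libraries. Luminal epithelial markers were at 5457 CPM or more in every macrophage library.

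Of the 83 members, 10 had 0 counts in every library and 13 had at most 3 counts in each. These 13 were Mmp1b, Mmp7, Mmp20 and 10 of the 21 ADAMs known from the reproductive tract or testis. A count of 0 allows up to 3 counts in a library, a limit for counting error only. By contrast, 45 of the 83 members had more than 3 counts in all 10 libraries.

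A cluster of 9 of the 22 MMPs lies on mouse chromosome 9 (GRCm38, 7272514 to 7699585), in the order Mmp13, Mmp12, Mmp1b, Mmp3, Mmp10, Mmp8, Mmp27, Mmp20 and Mmp7. Their levels differed widely in these cells, so the upstream sequences of 6 of them are shown. RefSeq promoter windows of 250 bases before and 50 bases after the start site (GRCm38.p6) were at hand for 52 of the 83 members, including all 9 of the cluster. The letters TGANTCA, the core of an AP-1 site and the same on both strands, occurred in 7 of the 9 cluster genes, in 12 of the 52 members (23.1%) and in 8.97% of all 27025 genes with a window. A loose C/EBP pattern with only the half-site TTGC in full, TTGCNNAA or its reverse TTNNGCAA, occurred in 6 of the 9 cluster genes. It occurred in 10 of the 52 members (19.2%) and in 12.2% of all genes. In the cluster no AP-1 match overlapped a C/EBP match. Below are the 120 bases before the start, all on the plus strand and 5′ to 3′, with AP-1 letters in capitals. Mmp12 has 2 RefSeq starts, of which the first lies 16 bases from the start of the gene in the count table.
Mmp13, chr9:7272394-7272513: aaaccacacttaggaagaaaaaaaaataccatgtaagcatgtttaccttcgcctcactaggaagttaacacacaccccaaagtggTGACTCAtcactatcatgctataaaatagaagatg
Mmp12, first start, chr9:7344277-7344396: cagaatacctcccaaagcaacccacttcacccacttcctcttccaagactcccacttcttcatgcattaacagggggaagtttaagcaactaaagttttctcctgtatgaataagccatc
Mmp12, second start, chr9:7347254-7347373: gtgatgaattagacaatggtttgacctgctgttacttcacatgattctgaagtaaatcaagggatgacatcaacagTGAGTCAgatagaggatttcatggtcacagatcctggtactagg
Mmp3, chr9:7445702-7445821: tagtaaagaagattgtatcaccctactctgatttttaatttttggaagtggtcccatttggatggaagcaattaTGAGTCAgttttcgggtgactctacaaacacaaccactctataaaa
Mmp10, chr9:7502222-7502341: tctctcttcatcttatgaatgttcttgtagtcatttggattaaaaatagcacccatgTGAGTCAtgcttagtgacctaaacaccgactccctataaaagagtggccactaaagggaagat
Mmp8, chr9:7558309-7558428: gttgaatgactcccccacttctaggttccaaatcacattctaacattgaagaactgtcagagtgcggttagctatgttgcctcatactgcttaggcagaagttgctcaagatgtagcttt
Mmp7, first start, chr9:7691970-7692089: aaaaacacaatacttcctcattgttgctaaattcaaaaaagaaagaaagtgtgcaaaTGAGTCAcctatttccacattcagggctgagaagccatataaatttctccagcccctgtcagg
The AP-1 letters began 35 bases before the start in Mmp13, 46 in Mmp3, and 63 in both Mmp10 and Mmp7, and 44 before the second start of Mmp12. The C/EBP letters began 39 bases before the first start of Mmp12, 19 before that of Mmp8 and 97 before the first start of Mmp7. Genes with the same AP-1 letters stood at very different levels: Mmp3 was at 43.0 to 114 CPM in every library, Mmp13 reached at most 2.96 CPM, Mmp10 was at 0 counts in all 6 macrophage libraries and at most 0.605 CPM in MECs, and Mmp7 stayed at or under 3 counts. A match of letters in these windows is a description and says nothing of binding.

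Per length, a few members carried most of each family. In MECs the highest of all members was Mmp2, the gelatinase that cuts denatured collagen and basement membrane collagen, at 95.8 ± 26.6 RPKM (SD over 4 libraries), followed by Adamts1 at 67.1 ± 16.2 RPKM and Mmp3, the stromelysin with broad matrix substrates, at 56.4 ± 6.01 RPKM. Over the 4 libraries Adamts1 (46.1 to 85.2) overlapped both, whereas Mmp2 (65.5 to 127) and Mmp3 (48.9 to 63.2) did not overlap. Mmp11, a stromelysin known from stromal cells, came next among the MMPs at 17.5 ± 6.08 RPKM. In macrophages Adamts1, which cuts versican and aggrecan, led at 242 ± 81.8 RPKM (SD over 6 libraries), before Timp3 at 125 ± 41.7 RPKM, Adam15 at 89.9 ± 16.8 RPKM and Adamts4 at 81.6 ± 34.4 RPKM, the last 3 overlapping in their spread. Over the 6 libraries Adamts1 (162 to 388) and Timp3 (76.9 to 177) overlapped as well, although Adamts1 was the higher within each library. Mmp2 remained the highest MMP there at 70.3 ± 15 RPKM, with Mmp3 at 40.7 ± 11.3 RPKM and Mmp9 at 23.6 ± 7.18 RPKM.

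**Figure D2:**
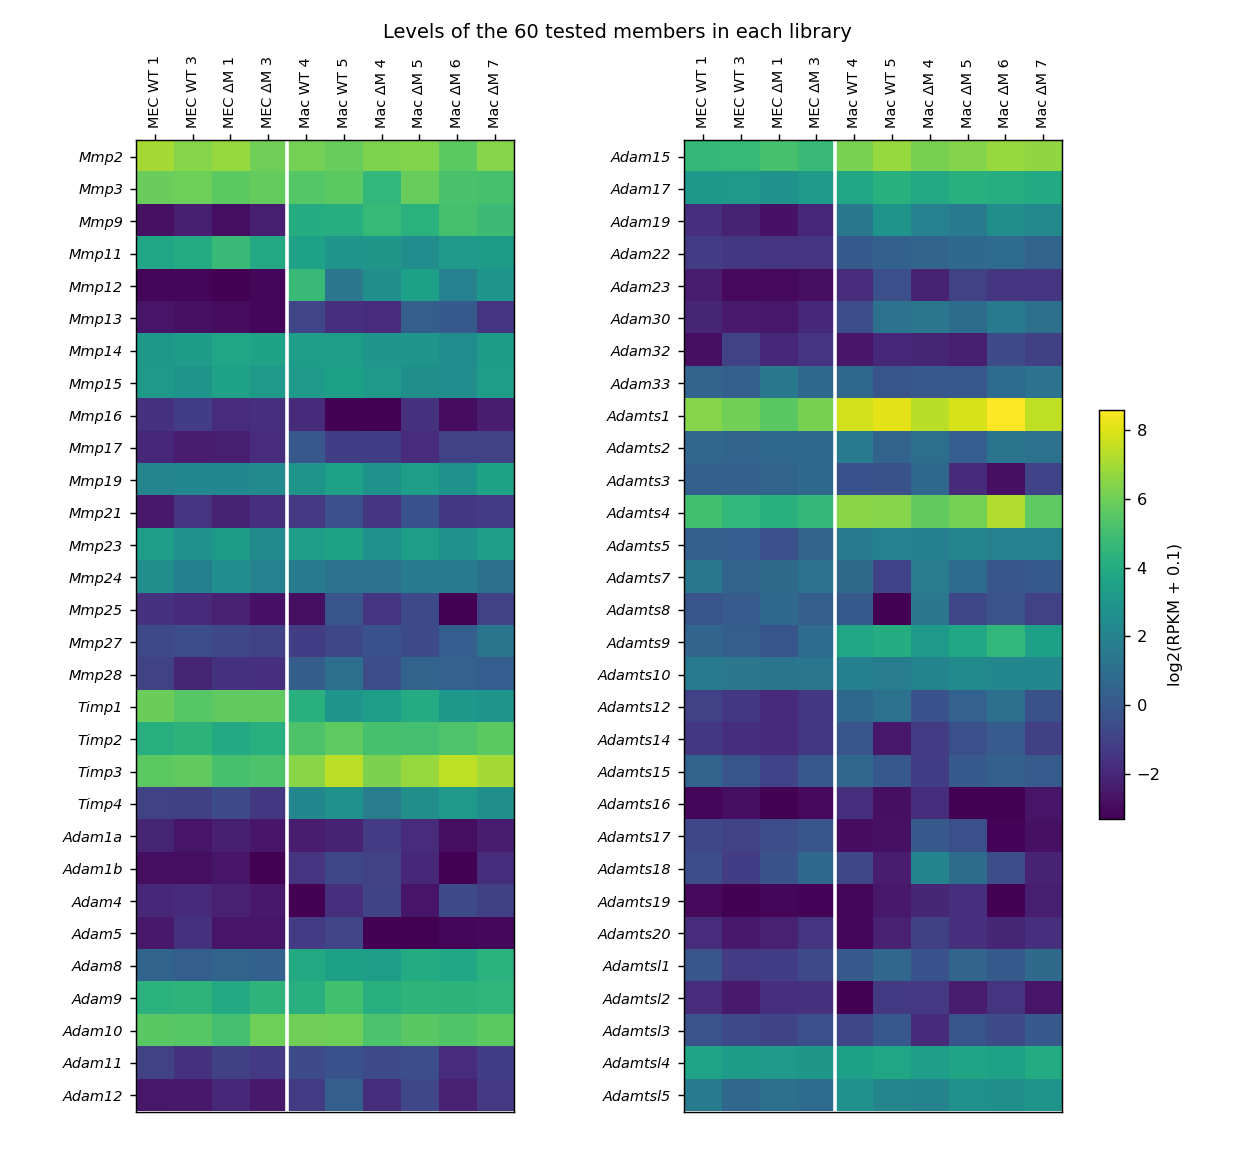
Level of the 60 members that passed the low-count filter in the fit of all libraries, as log2(RPKM + 0.1) in colour, with genes in rows by family and the 10 libraries in columns. Mmp2, Mmp3, Adam10 and Adamts1 are bright in all libraries, whereas Mmp9, Mmp12, Timp4 and Adamts9 brighten from the MEC to the macrophage columns and Timp1 darkens.

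Adamts1 made up 59.8% to 65.3% of summed ADAMTS RPKM in MECs and 64.7% to 70.4% in macrophages, and Adamtsl4 71.8% to 80.4% of the ADAMTS-like sum in MECs and 57.9% to 66.2% in macrophages. By mean RPKM the TIMPs changed their order, although Timp3 was already above Timp1 in WT MEC replicate 3 (51.9 against 44.8 RPKM). Timp1 made up 38.0% to 50.4% of summed TIMP RPKM in MECs and 3.11% to 12.5% in macrophages, whereas Timp3 went from 34.1% to 44.0% in MECs to 59.1% to 76.1% in macrophages. Summed TIMP over summed MMP RPKM was 0.460 to 0.636 in MECs, 0.716 and 1.27 in WT macrophages and 0.710 to 1.42 in CebpbΔM macrophages. These shares are descriptions of RNA, not of protein or activity.

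Macrophages were compared with MECs separately in WT and in CebpbΔM libraries, which share no library but share 1 fit and its estimate of spread. The fit tested 60 members, of which 43 passed the low-count filter in MECs alone and 17 passed it through the macrophage libraries, so that counts and medians over the 60 are descriptions. Among these 17 were Mmp9, Mmp12, Mmp13, Mmp17, Mmp28, Adam12, Adam23 and Adam30. Their adjusted p-values between the cell types are descriptions too. In WT, 22 members were higher and 1 lower in macrophages (edgeR quasi-likelihood test, adjusted p of 0.05 or less), or 38.3% of those tested against a background of 25.5% of all genes tested. All genes were higher in 14.8% and lower in 10.7% of cases. In CebpbΔM, 23 members were higher and 4 lower, or 45% against a background of 33.7%, with all genes higher in 18.9% and lower in 14.7%. In both genotypes 20 members were higher in macrophages and 1, Timp1, was lower: 21 of the 23 called in WT and 21 of the 27 called in CebpbΔM, or 35% of those tested beside 21.3% of all genes. The median log2 fold change of the tested members was 0.97 in WT and 1.16 in CebpbΔM, beside 0.06 and 0.07 over all genes. The number of members called in WT fell most without WT MEC replicate 3, then without WT MEC replicate 1 or WT macrophage replicate 5. In CebpbΔM it fell most without CebpbΔM MEC replicate 1, then without CebpbΔM MEC replicate 3. Each of these fits leaves 1 library in a MEC group or in the WT macrophage group, and the part of lost replication in the fall was not tested.

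**Figure D3:**
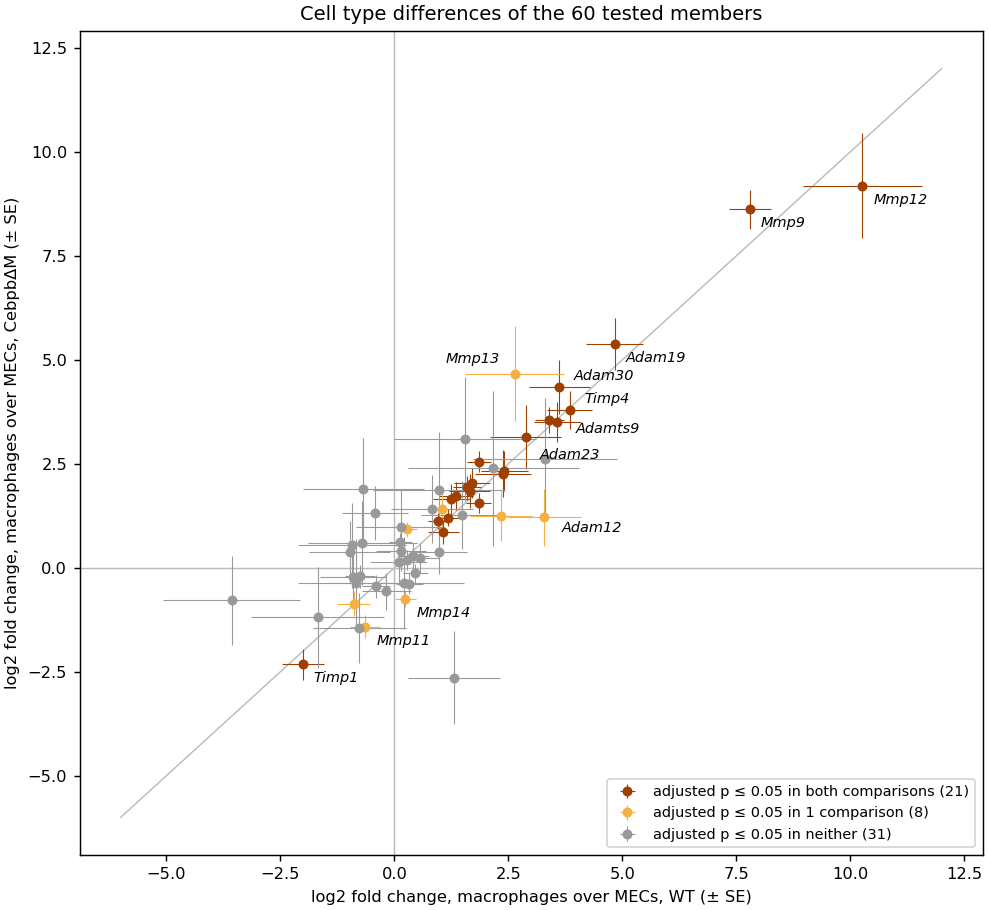
Log2 fold change of macrophages over MECs in WT libraries (x axis) and in CebpbΔM libraries (y axis) with standard errors, for the 60 tested members, coloured by whether the adjusted p was 0.05 or less in both comparisons (21), 1 (8) or neither (31). The grey diagonal marks equal change, Mmp12 and Mmp9 lie farthest to the upper right, and Timp1 is at the lower left.

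The 2 MMPs that separated the cell types most were Mmp12, macrophage elastase, and Mmp9, the second gelatinase. Mmp12 had 2 and 2 counts in WT MECs and 1 and 3 in CebpbΔM MECs, against 3882 and 394 counts in WT macrophages and 820, 1551, 499 and 904 in CebpbΔM macrophages. The ratio of its pooled counts per library total was 1456 in WT (exact 95% interval 568 to 5348) and 666 in CebpbΔM (260 to 2447), where the intervals cover counting error only. Its fitted log2 fold changes of 10.26 ± 1.31 (SE; adjusted p = 0.000244) and 9.19 ± 1.26 (adjusted p = 0.000251) depend on the prior count. The WT macrophage libraries were themselves far apart, at 194 and 18.7 CPM, and the 4 CebpbΔM libraries lay between them.
Mmp9 was at 0.122 to 0.365 CPM in the 4 MEC libraries, at 58.1 and 61.0 CPM in WT macrophages and at 89.1, 69.0, 123 and 101 CPM in CebpbΔM macrophages. Its log2 fold change was 7.79 ± 0.46 in WT (adjusted p = 1.31e-06), the smallest adjusted p of any member, and 8.62 ± 0.47 in CebpbΔM (adjusted p = 4.66e-07). Mmp9 and Mmp12 passed the low-count filter only through the macrophage libraries, so these adjusted p-values are descriptions. Every macrophage library was above every MEC library in Mmp9. Mmp9 is also a neutrophil gene. The 6 neutrophil markers summed to at most 0.888 CPM in MECs and to 20.98 to 42.9 CPM in macrophages. There Csf3r was at 17.1 to 40.9 CPM and Retnlg at 0.600 to 5.83 CPM, S100a8 and S100a9 were at 0 to 0.920 CPM and Ly6g was at 0. The part of neutrophils in the Mmp9 level was not tested.
Among the other MMPs, Mmp19 (log2 fold changes 1.08 and 0.86) and Mmp28 (2.38 and 2.26), both secreted enzymes, were higher in macrophages in both genotypes. Mmp13, a collagenase, was called in CebpbΔM but not in WT, on 3 and 7 pooled MEC counts: the ratio of counts was 30.1 (10.1 to 148) in CebpbΔM and 7.20 (3.17 to 19.1) in WT. Mmp17 was called in WT but not in CebpbΔM. Mmp11 (-1.42 ± 0.27), Mmp14 (-0.75 ± 0.20) and Mmp24 (-0.86 ± 0.30) were lower in macrophages in CebpbΔM, with WT values of -0.64 ± 0.33, 0.24 ± 0.24 and -0.89 ± 0.36 that did not pass the test. Mmp2 (-0.75 ± 0.32 and -0.21 ± 0.27) and Mmp3 (-0.40 ± 0.31 and -0.45 ± 0.27), the leading MMPs, did not pass in either genotype. Both are known from fibroblasts. The summed fibroblast markers overlapped between the cell types, but 5 of the 10 were higher in every macrophage library than in every MEC library, and the 10 averaged, on the log2 CPM scale, 7.18 to 8.04 in macrophages and 6.75 to 7.09 in MECs. Their part in these values was not tested.

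The 4 TIMPs each differed between the cell types in both genotypes. Timp1 was at 53.0 and 39.8 CPM in WT MECs and 46.3 and 45.6 CPM in CebpbΔM MECs, against 16.7 and 6.46 CPM in WT macrophages and 8.69, 14.4, 7.25 and 6.41 CPM in CebpbΔM macrophages. It was lower in macrophages by 4.02-fold in WT (log2 fold change -2.01 ± 0.46, adjusted p = 0.0088) and 4.99-fold in CebpbΔM (-2.32 ± 0.37, adjusted p = 0.000705). The groups did not overlap, although the WT call was lost without WT MEC replicate 1 (adjusted p = 0.0560) or without WT macrophage replicate 5 (adjusted p = 0.0623).
Timp3, which binds to the matrix and inhibits ADAM17 and ADAMTS proteases as well, was at 398 and 423 CPM in WT MECs and 288 and 317 CPM in CebpbΔM MECs. In macrophages it was at 724 and 1381 CPM in WT and 626, 874, 1445 and 1045 CPM in CebpbΔM. It was higher by 2.56-fold in WT (adjusted p = 0.0215) and 3.30-fold in CebpbΔM (adjusted p = 0.00293). The WT call was lost without WT MEC replicate 1 (adjusted p = 0.114) or 3 (0.101) or WT macrophage replicate 5 (0.158). Timp2, which also takes part in activating pro-MMP2 with MMP14, was higher by 2.27-fold and 2.31-fold. Timp4 rose from 1.63 to 3.32 CPM over all MECs to 18.7 to 49.1 CPM over all macrophages (14.4-fold and 13.9-fold). Timp1, Timp3 and Timp4 each overlap a synapsin gene (Syn1, Syn3 and Syn2) on the opposite strand. The reads were counted by strand.

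ADAMs with the catalytic motif and expressed outside the reproductive tract were tested for 8 of 9 members, and 4 of them were higher in macrophages in both genotypes: Adam8, Adam15, Adam17 and Adam19. Of all genes tested, 21.3% were called the same way in both genotypes. Adam8, a sheddase known from myeloid cells, was at 5.19 to 6.25 CPM in MECs, at 70.0 and 50.8 CPM in WT macrophages and at 47.2, 74.5, 63.7 and 91.1 CPM in CebpbΔM macrophages (10.6-fold and 11.7-fold, adjusted p = 3.1e-05 and 1.08e-05). Adam19 was higher by 28.6-fold in WT and 41.8-fold in CebpbΔM, from at most 1.53 CPM in MECs. Adam15 was higher by 3.59-fold and 2.93-fold. Adam17, the sheddase of TNF and of several EGF receptor ligands, was higher by 1.94-fold (adjusted p = 0.00808) and 2.17-fold (adjusted p = 0.00124). Adam10, the main sheddase of Notch receptors and E-cadherin, did not pass in either genotype (log2 fold changes 0.46 ± 0.27 and -0.14 ± 0.23), nor did Adam9.
The noncatalytic Adam22 and Adam23 were higher in both genotypes, Adam23 (2.88 ± 0.79 and 3.14 ± 0.77) less surely, since its call was lost without WT MEC replicate 3 (adjusted p = 0.148) or WT macrophage replicate 5 (0.161) in WT and without either MEC library in CebpbΔM (0.0913 and 0.0539). Adam11, the other noncatalytic member outside the reproductive tract, passed in neither genotype (log2 fold changes 0.98 ± 0.61 and 0.37 ± 0.53). Adam12 passed in WT but not in CebpbΔM. Of the 21 reproductive tract or testis ADAMs, 6 passed the filter and 1, Adam30, was called in both genotypes, beside the same 21.3% of all genes. Adam30 went from at most 0.542 CPM in MECs to 2.20 and 7.36 CPM in WT and 6.27 to 10.5 CPM in CebpbΔM macrophages (12.3-fold and 20.3-fold).

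Proteoglycan-cleaving ADAMTS proteases made up most of the ADAMTS calls: 4 of 7 were higher in macrophages in both genotypes (Adamts1, Adamts4, Adamts5 and Adamts9), and none was lower. This count is a description, beside 21.3% of all genes called the same way in both genotypes. Adamts1 was at 452 and 350 CPM in WT MECs and 245 and 376 CPM in CebpbΔM MECs. In macrophages it was at 1158 and 1444 CPM in WT and 861, 1249, 2060 and 940 CPM in CebpbΔM (3.24-fold and 4.12-fold, adjusted p = 0.00928 and 0.00153), with no overlap between the cell types. Adamts4 was higher by 3.14-fold and 3.60-fold and Adamts5 by 3.02-fold and 3.81-fold. Adamts9 was at 11.2 to 26.0 CPM in MECs and at 129 to 358 CPM in macrophages (11.9-fold and 11.4-fold, adjusted p = 0.000568 and 0.000281). CebpbΔM macrophage replicate 6 had the highest Adamts1, Adamts4, Adamts9, Timp3 and Timp4 of the 6 macrophage libraries and also the highest endothelial and pericyte marker sums, 2050 and 740 CPM, and CebpbΔM macrophage replicate 4 had the lowest endothelial and pericyte sums, 915 and 370 CPM, and the lowest Adamts1, Adamts9, Timp3 and Timp4. CebpbΔM macrophage replicate 6 also had the highest macrophage marker sum of the 6 libraries, 9847 CPM. Replicate 4 had the lowest of the 4 CebpbΔM macrophage libraries, 7486 CPM, with WT lower still at 4268 and 6423 CPM. The part of endothelial cells, pericytes and macrophages in these levels was not tested.
Adamts12 was higher in both genotypes, and the 3 procollagen-processing members (Adamts2, Adamts3 and Adamts14) passed in neither. Of the ADAMTS-like proteins, Adamtsl5 was higher in both (adjusted p = 0.0404 in WT and 0.00516 in CebpbΔM) and Adamtsl1 in CebpbΔM. Adamtsl4, which binds fibrillin microfibrils, did not pass in either genotype.

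**Figure D4:**
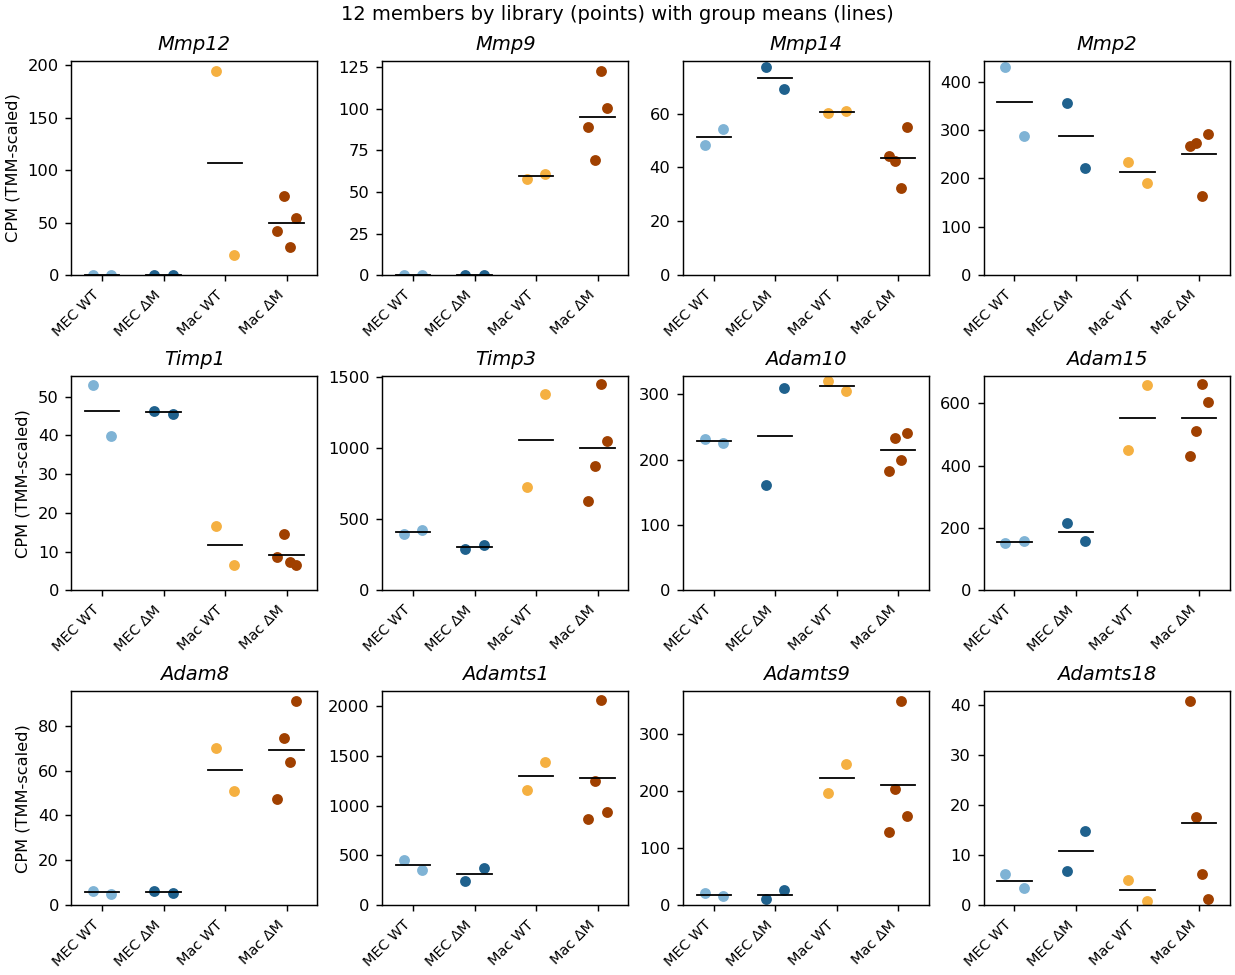
TMM-scaled CPM of 12 members in the 10 libraries, each point a library and each line a group mean (2 MEC WT, 2 MEC ΔM, 2 Mac WT and 4 Mac ΔM), on a linear axis from 0. Mmp12, Mmp9, Adam8 and Adamts9 are near the floor of the panel in MECs, Timp1 is the reverse, and the Mmp12 points of WT macrophages, 194 and 18.7 CPM, enclose those of CebpbΔM macrophages.

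The genotype comparison in MECs asked whether loss of C/EBPβ in macrophages went with altered protease or inhibitor RNA in the neighbouring epithelium. Of 43 members tested, 0 passed the edgeR quasi-likelihood test at an adjusted p of 0.05, beside 8 of 15698 genes (0.0510%). At an unadjusted p under 0.05 there were 2 members (4.65%), beside 5.42% of all genes. The genotypes did not overlap in 19 members, 10 higher and 9 lower in CebpbΔM (44.2%), beside 28.2% of all genes. The likelihood ratio test and DESeq2 each called 0 members too, beside 1.14% and 1.03% of all genes. The median log2 fold change of the members was -0.08, beside -0.01 over all genes.
Adamts18, a protease studied in mammary epithelium and its basement membrane, had the smallest p: it was at 6.25 and 3.48 CPM in WT and 6.81 and 14.9 CPM in CebpbΔM (log2 fold change 1.19 ± 0.42, unadjusted p = 0.0168, adjusted p = 0.587). It passed only when CebpbΔM replicate 1 was left out (1.66, adjusted p = 0.0400), which leaves 1 CebpbΔM library whose spread is taken from WT. Mmp14, the membrane-type MMP that activates pro-MMP2, was at 48.2 and 54.4 CPM in WT and 77.2 and 69.1 CPM in CebpbΔM (0.53 ± 0.21, unadjusted p = 0.0263, adjusted p = 0.731). Adam33 (0.71 ± 0.33), Adamts8 (0.68 ± 0.34) and Mmp11 (0.53 ± 0.28) followed on the higher side.
On the lower side the smallest p-values were those of Timp3 (-0.42 ± 0.21), Adamtsl4 (-0.40 ± 0.22), Adamts15 (-0.67 ± 0.39), Adamts12 (-0.56 ± 0.41) and Adamts4 (-0.32 ± 0.23), with unadjusted p from 0.0730 to 0.206. Timp3, Adamtsl4 and Adamts12 did not overlap between the genotypes. Timp1 (0.01 ± 0.22), Timp2 (-0.20 ± 0.21), Mmp2 (-0.30 ± 0.27) and Mmp3 (-0.21 ± 0.20) lay within about 1 SE of no change, although Timp2 and Mmp3 did not overlap. For a single gene, 2 against 2 libraries cannot go below p = 0.333 in an exact permutation test, with the two-sided p taken as double the smaller one-sided p.

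**Figure D5:**
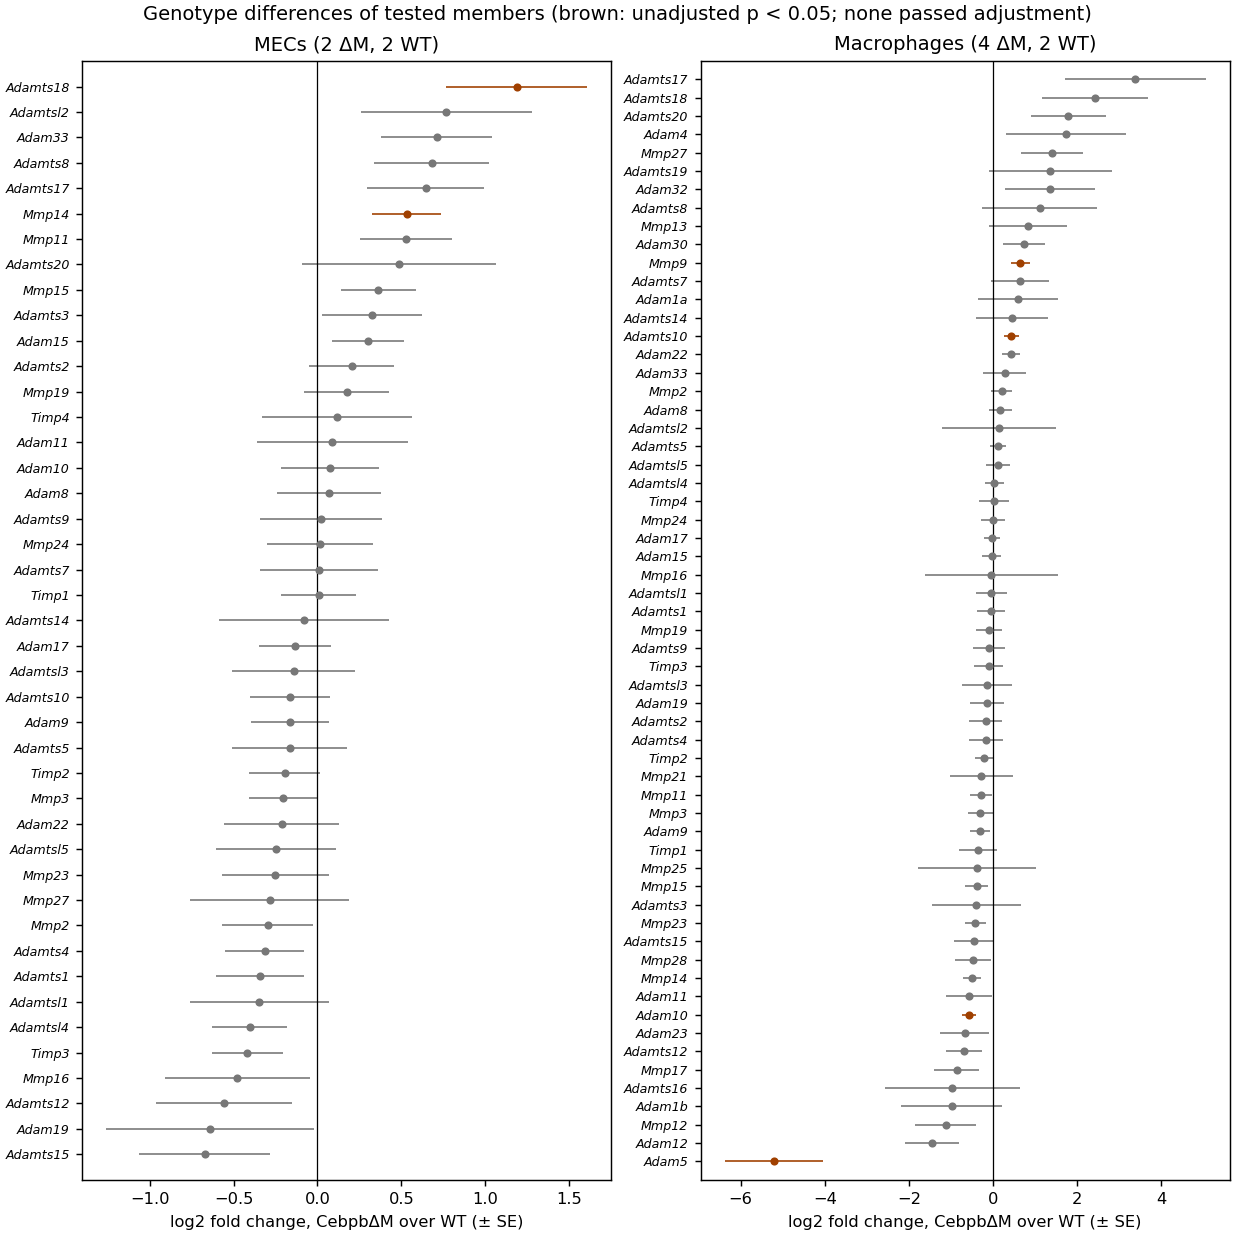
Log2 fold change of CebpbΔM over WT with standard errors for the 43 members tested in MECs (left) and the 60 tested in macrophages (right), sorted by value, with unadjusted p under 0.05 in brown. Only 2 members in MECs and 4 in macrophages are brown, and Adam5 stands apart at -5.21.

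In macrophages, the cells in which Cebpb was targeted, 60 members were tested and 0 passed the quasi-likelihood test, as did 0 of all 17772 genes (0%). At an unadjusted p under 0.05 there were 4 members (6.67%), beside 8.63% of all genes, and the genotypes did not overlap in 9 members (15%), 5 higher and 4 lower in CebpbΔM, beside 18.5% of all genes. The likelihood ratio test, which the study used, called 1 member, Adam5, beside 0.777% of all genes, and DESeq2 called 0 members beside 1.13%. The median log2 fold change of the members was -0.07, beside 0.00 over all genes. For a single gene, 4 against 2 libraries cannot go below p = 0.133 in the same exact permutation test.
Adam5, an ADAM known from the testis, had 20 and 30 counts in WT macrophages and 0, 0, 1 and 1 counts in CebpbΔM macrophages, and 5 to 18 counts in MECs. The ratio of pooled counts per library total, WT over CebpbΔM, was 48.0 (exact 95% interval 12.6 to 407, counting error only). Its adjusted p was 0.452 in the quasi-likelihood test and 0.0012 in the likelihood ratio test, and it ran from 0.0905 in DESeq2 to 0.931 over the other alternatives. Mmp8, a collagenase of neutrophils that was below the main filter on low counts and is named after its values were seen, had a like pattern, with 18 and 72 counts in WT and 0, 1, 0 and 4 in CebpbΔM macrophages (ratio 34.5, interval 14.3 to 109). With the filterByExpr filter its log2 fold change was -4.86 (adjusted p = 0.473), and with no filter the adjusted p was 0.456.
Adam10 was at 320 and 305 CPM in WT and 183, 233, 200 and 240 CPM in CebpbΔM macrophages, without overlap (-0.57 ± 0.16, unadjusted p = 0.00835, adjusted p = 0.488). Mmp14 was at 60.2 and 61.0 CPM in WT and 44.2, 42.5, 32.4 and 55.0 CPM in CebpbΔM, also without overlap (-0.50 ± 0.22, adjusted p = 0.580). Adam12 (-1.45 ± 0.64) and Mmp23 (-0.42 ± 0.26) were the other members named on the lower side. The summed luminal epithelial markers were also lower in all 4 CebpbΔM macrophage libraries than in both WT ones, and so were 3 of the 10 single markers, Krt8, Krt18 and Krt19. The other 7 overlapped between the genotypes, among them Epcam (285 to 645 CPM in CebpbΔM, 418 and 460 CPM in WT). The basal epithelial sum overlapped as well, at 729 to 3044 CPM in CebpbΔM and 802 and 1240 CPM in WT. Adam10, at 161 to 310 CPM in MECs, and Mmp14, at 48.2 to 77.2 CPM, are expressed there too, and the part of epithelial RNA in these values was not tested.
On the higher side, Mmp9 was at 58.1 and 61.0 CPM in WT and 69.0 to 123 CPM in CebpbΔM macrophages (0.65 ± 0.24, unadjusted p = 0.0235, adjusted p = 0.521). The macrophage marker sum moved with it, at 4268 and 6423 CPM in WT and 7486 to 9847 CPM in CebpbΔM. Of the 12 single markers, 7 were higher in every CebpbΔM macrophage library than in both WT ones. The other 5 overlapped between the genotypes: Mertk, Fcgr1, Cx3cr1, Lyve1 and Mrc1. The part of macrophage content in the Mmp9 values was not tested. Adamts10 was at 28 and 26.7 CPM in WT and 33.6, 42.7, 37.5 and 36.6 CPM in CebpbΔM (0.44 ± 0.18, unadjusted p = 0.0419). Adamts17 (3.38 ± 1.67), Adamts20 (1.79 ± 0.89) and Adamts18 (2.44 ± 1.26) had large fold changes with large errors: Adamts18 was at 5.10 and 0.902 CPM in WT and at 40.7, 17.7, 6.22 and 1.26 CPM in CebpbΔM, where the groups overlapped. The basal epithelial markers had the same order over these 4 CebpbΔM libraries, within 729 to 3044 CPM. Mmp12 (-1.12 ± 0.72), all 4 TIMPs (from -0.35 ± 0.46 for Timp1 to 0.02 ± 0.36 for Timp4), Adam17 (-0.02 ± 0.19) and Adamts1 (-0.05 ± 0.34) did not pass. Without WT macrophage replicate 4 the values of Mmp12 and Timp1 were 1.38 and 0.49, opposite in sign.

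The test of whether the genotype difference itself differed between the cell types called 0 of 60 members and 0 of 18323 genes (0%) with the quasi-likelihood test, and the likelihood ratio test and DESeq2 called 0 members beside 0.289% and 0.147% of all genes. At an unadjusted p under 0.05 there were 3 members (5%), beside 5.19% of all genes: Mmp14 (-0.99 ± 0.31, unadjusted p = 0.00884, adjusted p = 0.923), Adam5 and Adamts10. Mmp14 was higher in CebpbΔM than in WT among MECs and lower among macrophages, without overlap in either.

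Genes that act with the members were read in the same fits as 4 lists: 24 activators and inhibitors, 10 other metalloproteases and relatives, 21 ligands and receptors shed by ADAM10 or ADAM17, and 17 matrix substrates. Between genotypes the quasi-likelihood test called 0 of their 58 tested genes in MECs and 0 of 61 in macrophages, and the interaction called 0 of 61. At an unadjusted p under 0.05 there were 4 in MECs (6.90%, beside 5.42% of all genes), 8 in macrophages (13.1%, beside 8.63%) and 7 in the interaction (11.5%, beside 5.19%). Between cell types, 6 shed proteins were higher and 9 lower in macrophages in both genotypes, of 20 tested (75%, beside 21.3% of all genes). Those lower were mostly ligands: Areg, an EGF receptor ligand of the ductal epithelium (log2 fold changes -1.57 ± 0.47 and -2.95 ± 0.39), Hbegf, Tgfa, Ereg, Nrg1, Cx3cl1, Cxcl16, the adhesion protein Cdh1 and Csf1, the ligand of the macrophage receptor Csf1r. Those higher included Tnf (1.03 ± 0.30 and 2.17 ± 0.29), Tnfrsf1b, Notch2, Mertk and Csf1r. Csf1r and Mertk are also among the macrophage markers.
Of 20 tested activators and inhibitors, 3 were higher (Pcsk6, Serpine2 and Tspan5) and 3 lower (Plaur, Rhbdf1 and Rhbdf2) in macrophages in both genotypes (30%). Rhbdf1 and Rhbdf2 encode the iRhom partners that carry ADAM17 to the cell surface, and stood at -0.78 ± 0.24 and -1.35 ± 0.30 in WT while Adam17 itself was higher. Of 15 tested substrates, Fn1, Fbn1 and Vwf were higher in both genotypes. Vwf, the substrate of ADAMTS13, is an endothelial marker, and Fn1 stood at 3.43 ± 0.31 and 3.73 ± 0.30. Of 6 tested relatives, Tll1 was higher and Mme and Papln were lower in both (50%).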

How the data were processed

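Per the file headers and the study's methods, the authors trimmed reads with Trimmomatic, aligned them to GRCm38 with HISAT2 and counted read pairs by strand per gene with featureCounts 1.6.2 (Ensembl release 100, mapping quality of 10 or more). The deposited values are raw counts per gene. Libraries came from a low-input kit that amplifies cDNA, with no mention of molecular identifiers. Gene symbols and biotypes were taken from the GENCODE M21 annotation of the same build (55141 of 55487 identifiers matched).

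Counts were analysed with edgeR 4.0.16 in R. Genes of at least 300 nt with over 1 CPM in at least 2 libraries of a fit were TMM-normalized and tested by the quasi-likelihood test with Benjamini-Hochberg adjustment over all genes, at 0.05. SE is the log2 fold change over the square root of F. MEC and macrophage genotypes were fitted apart, and cell type and interaction contrasts in 1 fit of the 4 groups. RPKM used the deposited gene lengths. The procedure was tested on simulated counts. Alternatives were the likelihood ratio test, DESeq2 1.42.0, other filters and scaling, a replicate block, marker covariates and leaving out libraries.

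Members and gene lists were chosen with earlier results of these data known. Members were named if they passed a genotype test, had 1 of the 5 smallest p-values a direction in a genotype comparison, had 1 of the 8 largest fold changes a direction among members called in both cell type comparisons, were 1 of the 3 highest per family and cell type, were a TIMP, or were 1 of 11 listed members. Other members named in a sentence are those called there, or were picked after their values were seen. Protein sequences were not used here, and some genes of the lists are not reported here.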

Additional observations from a re-analysis of the deposited data

Results flagged for a closer look

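Among the 37 named members, the 4 CebpbΔM macrophage libraries were examined for a library far from the rest by Dixon's ratio, which chance gives in about 1 of 20 groups. It occurred for 1 member: Adamts8, an ADAMTS protease, was at 11.8 CPM in CebpbΔM macrophage replicate 4 and at 1.86 to 3.36 CPM in the other 3, with 4.40 and 0 CPM in WT macrophages and 3.43 to 7.26 CPM in MECs. The same library had the highest basal epithelial markers of the macrophage libraries, 3044 CPM, whose part in this value was not tested.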

How the results depend on the processing

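No fold change of a member called between the cell types changed its sign under the alternative settings. Among values of the 37 named members, 20 of 326 in the MEC genotype comparison and 53 of 588 in the macrophage genotype comparison changed sign, as did 9 and 8 of 589 in the cell type comparisons, none of a called member. In the genotype comparisons 264 of 266 values of the members with the smallest p kept their side of the threshold. The exceptions were Adamts18 in MECs, which passed without CebpbΔM replicate 1, and Adam5 in macrophages, which passed in the likelihood ratio test. The number of members called between genotypes was then 1 in place of 0 in each, and over the libraries left out it was 0 to 1 in MECs. In the WT cell type comparison the count of 23 became 15 at an adjusted p of 0.01 and 13 to 24 with a library left out. In CebpbΔM the count of 27 became 17 to 28 with a library left out and 22 at 0.01. At 0.05, 11 of the 23 WT calls and 16 of the 27 CebpbΔM calls held under every alternative. Beside Adam23, Timp1 and Timp3, the WT calls of Adam12, Adam17, Adamts1, Adamts4, Adamts12, Adamtsl5, Mmp17, Mmp19 and Mmp28 were lost when WT MEC replicate 1 or 3 or WT macrophage replicate 4 or 5 was left out, in part of these cases. Beside Adam23, the CebpbΔM calls of Adamts4, Adamts12, Adamtsl1, Adamtsl5, Mmp11, Mmp13, Mmp14, Mmp19, Mmp24 and Mmp28 were lost in the same way without CebpbΔM MEC replicate 1 or 3 or CebpbΔM macrophage replicate 4, 5 or 7. Adamtsl5 in WT was also lost with the WT libraries alone or without either CebpbΔM MEC library, and Mmp19 in CebpbΔM with RLE scaling, with filterByExpr, with no filter or without either WT MEC library. A stricter threshold lowers the counts by construction, and the cause of the other changes was not tested. With replicate numbers as a replicate block, 0 members were called in MECs, macrophages and the interaction, although all genes called went from 8 to 205 in MECs and from 0 to 12 in macrophages. No source used here says that the numbers mark shared mice, and the correlation of same-numbered deviations was 0.105 in MECs and 0.0394 in macrophages. Groups of 2 libraries limit every genotype statement.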
